A study of Mus musculus with 9 samples.

Results

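Transcripts of 28 genes for the scaffold of the excitatory postsynapse were followed in mouse hippocampus after knockdown of Camta1, the gene of a transcription activator that binds calmodulin. The 28 genes were chosen by symbol, and all 28 were found among the 31804 genes of the deposited count table. The 9 libraries came from male C57BL/6NCrl mice, an inbred strain, with 3 animals per group. Each mouse was 8 weeks old when a recombinant adeno-associated virus was injected into the dorsal hippocampus, and tissue was taken 3 weeks later. The virus carried a short hairpin RNA (shRNA), which lowers the mRNA it matches: a non-targeting control hairpin in 1 group, and the hairpins shRNA A or shRNA B against Camta1 in the others. All 3 groups therefore shared the surgery, the virus and the expression of a hairpin, and uninjected mice were not analysed here. The dissected area was the one with mCherry fluorescence, so each library is a piece of tissue with infected and uninfected neurons, glia and vessels, and fewer cells of a type cannot be told apart from less RNA per cell. The sources used here do not give the promoter that drove the hairpins.

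The postsynaptic density is a protein sheet under the membrane of a dendritic spine, opposite the glutamate release site. PSD-95 and its relatives (the Dlg genes) sit next to the membrane and hold receptors and adhesion molecules, SAPAP proteins (the Dlgap genes) join them to Shank proteins, and Shank proteins bind Homer proteins deeper in the spine, where Homer links them to metabotropic glutamate receptors and calcium stores. Neuroligins and LRRTMs cross the membrane and bind presynaptic adhesion proteins. Around this core lie regulators of actin and of small GTPases, which shape the spine and move receptors. Camta proteins carry a CG-1 domain, a DNA-binding domain known to recognise sites with the core CGCG.

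The bases before the start sites were read for the 3 members with the largest differences between groups, Homer2, Homer3 and Lrrtm3. Homer2 differed most between shRNA A and control. Homer3 and Lrrtm3 differed most between shRNA B and shRNA A, where Camta1 itself had a log2 fold change of -0.02. A link of these windows to Camta1 was not tested. Each line gives 250 bases upstream of a RefSeq transcript start (build GRCm38.p6), 5′ to 3′ on the gene's strand, with each CGCG in capitals.
Homer2 (chr7:81706926-81707175, minus strand): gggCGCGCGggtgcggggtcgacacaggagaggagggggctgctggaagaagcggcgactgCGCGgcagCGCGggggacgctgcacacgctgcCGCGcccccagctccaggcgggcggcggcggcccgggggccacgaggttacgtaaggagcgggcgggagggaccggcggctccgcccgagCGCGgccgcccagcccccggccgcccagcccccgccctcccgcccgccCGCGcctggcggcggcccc
Homer3 (chr8:70282749-70282998, plus strand): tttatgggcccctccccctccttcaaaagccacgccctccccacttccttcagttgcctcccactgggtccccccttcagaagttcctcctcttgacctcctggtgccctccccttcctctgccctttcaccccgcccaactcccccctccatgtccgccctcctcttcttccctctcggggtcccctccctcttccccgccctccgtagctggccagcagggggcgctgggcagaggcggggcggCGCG
Lrrtm3 (chr10:64090256-64090505, minus strand): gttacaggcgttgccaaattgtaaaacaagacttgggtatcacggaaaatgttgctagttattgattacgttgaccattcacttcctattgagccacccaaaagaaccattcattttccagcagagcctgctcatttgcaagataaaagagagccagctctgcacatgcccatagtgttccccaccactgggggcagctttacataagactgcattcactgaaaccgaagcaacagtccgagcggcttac

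The Homer2 window held 7 matches to CGCG, counting overlapping ones, the Homer3 window 1 and the Lrrtm3 window 0. RefSeq lists another start for Homer2, whose window held 0, and the window shown was chosen because it held more matches. GC content of these windows was 83.2%, 68% and 46%. RefSeq gave a promoter for 22 of the 28 members, 38 promoters in all, and 50% of these held CGCG, against 33.8% of all 32851 mouse promoters of the same length. CGCG reads the same on both strands. The longer motif CGCGT, searched on both strands, was in 18.4% of the members' promoters and 16.2% of all, and CGCGG in 44.7% and 26.3%. Every CGCGT or CGCGG match also holds a CGCG match. These shares were not matched for the GC content of the promoters. A match describes the letters of the window and is not a bound site.

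Camta1 itself, the check of the labels, was measured at 427, 455 and 442 CPM (counts scaled to a common library size with TMM factors) in the control libraries. It was at 230.5, 174 and 254 CPM in the shRNA A libraries and at 239, 145 and 266 CPM in the shRNA B libraries, so all 6 lay below all 3 controls. The log2 fold change was -1.01 for shRNA A (edgeR quasi-likelihood test, Benjamini-Hochberg adjusted p = 0.388) and -1.03 for shRNA B (adjusted p = 0.0776), and neither passed the threshold of 0.05. The authors' deposited table, from a likelihood ratio test over both hairpins, gives Camta1 an adjusted p of 0.000358. Library totals were 29123744 to 38189288 counts, and members took between 0.957% and 1.07% of them. Slc17a7, the vesicular glutamate transporter of forebrain excitatory neurons, lay between 1762 and 2355 CPM, and the thalamic Tcf7l2 between 7.19 and 10.7 CPM. Another thalamic marker, Slc17a6, varied more, from 3.43 to 26.3 CPM, as did the cortical Fezf2, from 22.7 to 50.2 CPM. Both were highest in shRNA A replicate 3. In 1 library, control replicate 3, the choroid plexus gene Ttr was at 935 CPM, while the lowest library had 1.42 CPM.

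No member passed the adjusted threshold in any of 4 comparisons. Under shRNA A, 0 of 28 members passed, with 0.0243% of all 16438 tested genes called. Under shRNA B, 0 of 28 passed beside 1.02% of all genes. For the mean of both hairpins, 0 of 28 passed beside 0.0973% of all genes, and between the hairpins 0 of 28 passed beside 0.0%. DESeq2 called 0 of 28 members in each comparison, beside 0.262%, 2.44%, 1.54% and 0.764% of all genes in the same order, and limma-voom 0 of 28, beside 0.0%, 0.578%, 0.0791% and 0.0%. The likelihood ratio test in the authors' deposited table also called 0 of 28 members, beside 379 of the 15093 genes with an adjusted p. The lowest adjusted p of a member in that test was 0.168, for Homer2. At an unadjusted p under 0.05, edgeR picked 1 member under shRNA A (Homer2, beside 6.9% of all genes), 3 under shRNA B (Dlg2, Nlgn3 and Psd3, beside 12.8%), 2 for both hairpins (Homer2 and Nlgn3, beside 10.4%) and 2 between the hairpins (Homer3 and Lrrtm3, beside 9.34%). As shares of the 28 members these counts are 3.57%, 10.7%, 7.14% and 7.14%, all below the share of all genes. The comparisons with control share the 3 control libraries.

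The precision of these libraries set how small a difference could be seen. Member counts per library ran from 396 to 49639, so the counting error was at most 5.03% and the spread between libraries dominated. Animal, dissection and library preparation cannot be told apart in that spread. Standard errors of the log2 fold changes were 0.0564 to 0.181 over the 4 comparisons. The 95% interval of the fold change, not adjusted over genes, lay inside 1.5-fold in either direction for 27 of 28 members under shRNA A, for 28 under shRNA B, for 28 over both hairpins and for 27 between the hairpins. The intervals that reached past 1.5-fold were those of Lrrtm4 under shRNA A, whose lower bound was -0.61 on the log2 scale, and of Lrrtm3 between the hairpins, with a lower bound of -0.60. Inside 1.2-fold lay the intervals of 13, 15, 18 and 12 members in the same order of comparisons. For the other members the interval reached past 1.2-fold in at least 1 direction.

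**Figure D1:**
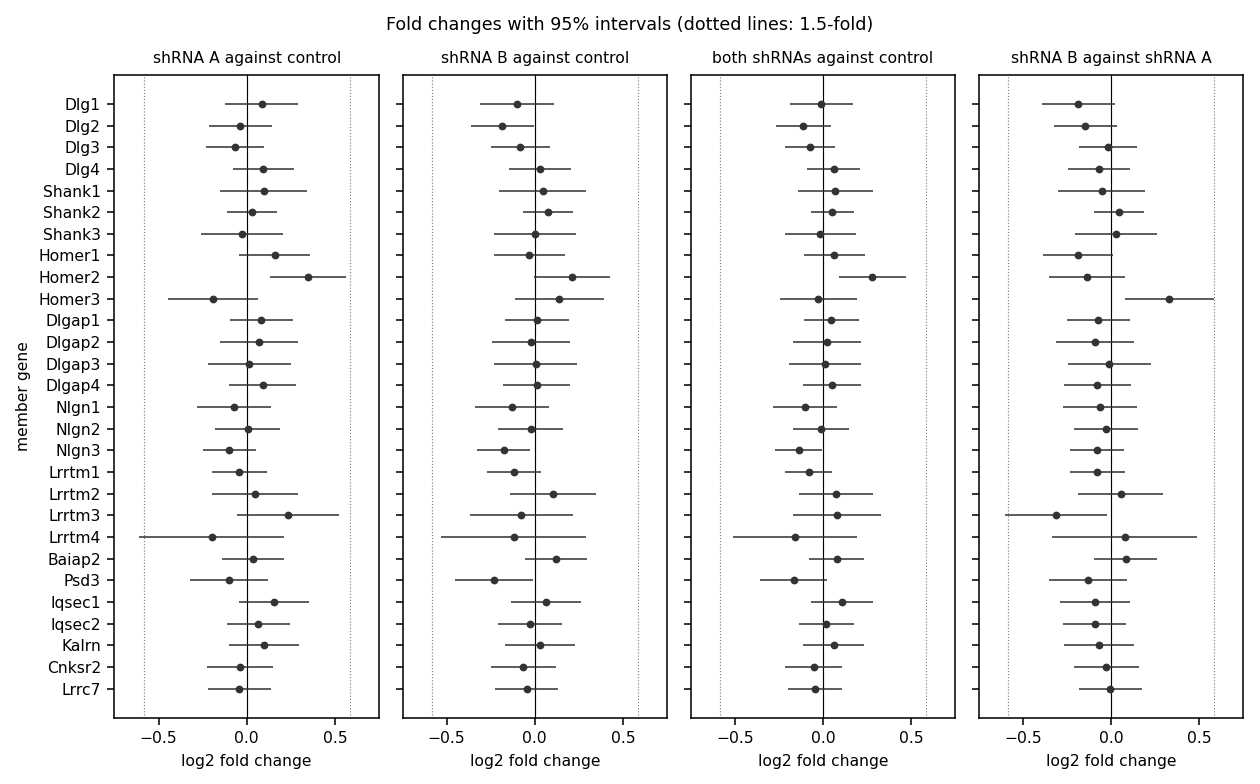
Log2 fold changes of the 28 members (y axis) in 4 comparisons (x axes, log2 scale), with 95% intervals from the edgeR fit as horizontal bars and dotted lines at 1.5-fold in each direction. Most intervals cross 0. Those that do not are Homer2 under shRNA A and over both hairpins, Dlg2, Nlgn3 and Psd3 under shRNA B, Nlgn3 over both hairpins, and Homer3 and Lrrtm3 between the hairpins, and no member passed the adjusted test.

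Levels of different genes can be set side by side only per length, here as CPM per kilobase (kb) of merged exon. On that scale the members spanned a 31.2-fold range, from 3.85 CPM per kb for Lrrtm3 to 120.4 CPM per kb for Dlgap3. Over 50 CPM per kb lay 7 members: Dlgap3, Shank1 (106), Dlg4 (102), Baiap2 (86.8), Nlgn2 (67.2), Shank3 (63.5) and Iqsec2 (59.5). No Homer gene and no LRRTM gene was among them. Between 10 and 50 CPM per kb lay 15 members. Under 10 CPM per kb lay Dlg1 (9.03), Lrrtm4 (8.79), Homer2 (4.76), Nlgn1 (4.61), Lrrtm2 (3.90) and Lrrtm3 (3.85). Within a family the highest member exceeded the lowest by 14.6-fold in the neuroligins, 12.1-fold in the LRRTMs, 11.3-fold in the PSD-95 family, 8.56-fold in the SAPAP family, 4.62-fold in the Homer family and 3.39-fold in the Shank family.

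**Figure D2:**
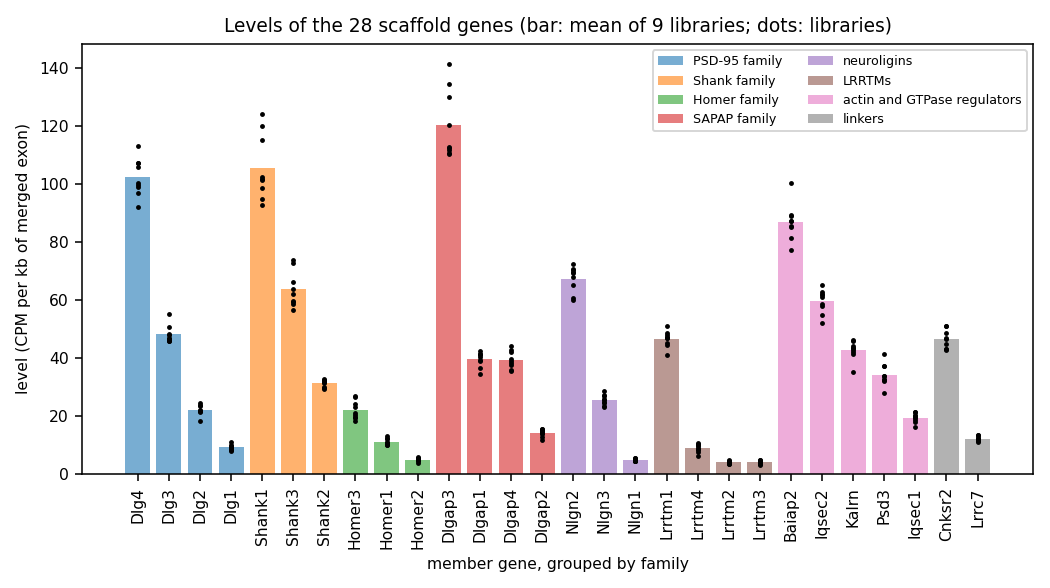
Levels of the 28 members in CPM per kb of merged exon (y axis, from 0), grouped by family (x axis and colours). Bars are means of 9 libraries and dots are the libraries. Dlgap3, Shank1 and Dlg4 stand highest, and the dots of a gene spread far less than the genes differ.

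In the PSD-95 family, Dlg4 encodes PSD-95, the core scaffold of the family (chromosome 11), and had 1219.8, 1421 and 1310.4 CPM in the control libraries, 1401, 1321 and 1497 CPM under shRNA A and 1284, 1328 and 1418 CPM under shRNA B. The groups overlapped, and its log2 fold change was 0.09 ± 0.08 (SE) under shRNA A and 0.03 ± 0.08 under shRNA B. Dlg2, which encodes PSD-93 (chromosome 7), had 397, 377 and 350.5 CPM in control, 388, 349 and 359.5 CPM under shRNA A, and 349, 294 and 346 CPM under shRNA B. All 3 shRNA B libraries lay below all 3 controls, the lowest control being only slightly above the highest shRNA B library. The log2 fold change of Dlg2 under shRNA B was -0.18 ± 0.08 (SE; edgeR adjusted p = 0.375), and without shRNA B replicate 2, the lowest library, it was -0.11. Dlg3, which encodes SAP102, had 268, 282 and 321 CPM in control, 296, 270.4 and 267 CPM under shRNA A and 273, 279.8 and 271 CPM under shRNA B. Its groups overlapped, with 1 high control library, and its log2 fold change over both hairpins was -0.07 ± 0.07 (SE; edgeR adjusted p = 0.741). Dlg1, which encodes SAP97, had group means of 97.2, 103 and 90.6 CPM, with libraries of all groups interleaved. Dlg4 made up 54.8% ± 2.10 of the family's summed level per kb in control, 57.1% ± 1.92 under shRNA A and 57.2% ± 1.43 under shRNA B (SD, n = 3 each).

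In the SAPAP family, Dlgap3 (chromosome 4), the highest member of the list per kb, had 509, 608 and 508 CPM in control, 505, 499 and 638 CPM under shRNA A and 499.5, 544 and 588 CPM under shRNA B. The groups covered much the same range, and the log2 fold changes were 0.02 ± 0.11 and 0.01 ± 0.11 (SE). The log2 fold changes of the other family members Dlgap1, Dlgap2 and Dlgap4 lay between -0.02 and 0.09 against control. All 4 SAPAP genes had a log2 fold change over 0 under shRNA A and 3 under shRNA B, and none passed the test. The share of Dlgap3 in the family's summed level per kb was 56.9%, 55.6% and 56.9% in the 3 groups.

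In the Shank family, Shank1 (chromosome 7), a scaffold known from mature spines, had 974, 1211 and 1035 CPM in control, 1074, 1067 and 1303 CPM under shRNA A and 998, 1065 and 1262 CPM under shRNA B. In every group 1 library stood above the others, and the log2 fold changes of 0.10 ± 0.11 and 0.05 ± 0.11 (SE) were below that spread. Shank3, the family member whose loss causes a human neurodevelopmental syndrome, had 587 ± 77.8, 576 ± 78.7 and 587 ± 20.4 CPM in the control, A and B groups (SD, n = 3 each). Shank2 varied least of all members, with a coefficient of variation of 4.15% over the 9 libraries, and its group means were 327, 334 and 345 CPM. Exons of Shank1 overlap those of 1700008O03Rik on the opposite strand over 339 bases in the GRCm38 annotation, and the libraries keep no strand, but that gene had only 6.34 to 6.98 CPM on group average.

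The Homer family held the largest differences among the members. Homer2 (chromosome 7), which encodes a long, coiled-coil Homer protein, had 43.7, 59.9 and 54.1 CPM in control, 70.8, 63.1 and 66.7 CPM under shRNA A and 57.0, 61.9 and 63.9 CPM under shRNA B. All 3 shRNA A libraries lay above all 3 controls, whereas shRNA B overlapped the controls. The log2 fold change was 0.35 ± 0.10 (SE) under shRNA A (edgeR unadjusted p = 0.00452, adjusted p = 0.506), 0.21 ± 0.10 under shRNA B (adjusted p = 0.402) and 0.28 ± 0.09 over both hairpins (adjusted p = 0.276). The library with the lowest value, control replicate 1, weighed on these values: without it they were 0.23, 0.10 and 0.16. When libraries were scaled on 22 pan-neuronal genes in place of all genes, Homer2 over both hairpins reached 0.41 with an adjusted p of 0.0491, while over the other alternatives the adjusted p lay between 0.148 and 0.726. Homer2 was the 1 member without overlap between shRNA A and control, 3.57% of the members beside 12.5% of all genes.

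Homer3 (chromosome 8), another long Homer gene, had 69.3, 92.6 and 66.9 CPM in control, 62.1, 65.8 and 72.4 CPM under shRNA A and 83.0, 90.5 and 78.4 CPM under shRNA B. The shRNA B libraries all lay above the shRNA A libraries, and the controls spanned nearly the whole range. Between the hairpins the log2 fold change was 0.33 ± 0.12 (SE; edgeR unadjusted p = 0.0148, adjusted p = 0.395), from -0.19 ± 0.12 under shRNA A and 0.14 ± 0.12 under shRNA B against control. The values against control rested on single libraries: they were -0.03 and 0.30 without control replicate 2, -0.28 and 0.05 without control replicate 3, and under shRNA B 0.075 without control replicate 1 and 0.082 without shRNA B replicate 2. Its exons overlap those of Ddx49 on the opposite strand over 874 bases in the GRCm38 annotation, and reads there cannot be assigned without strand. Ddx49 had 22.2 ± 0.98, 23.0 ± 2.58 and 22.7 ± 2.63 CPM in the control, A and B groups (SD, n = 3 each), a log2 fold change of -0.02 between the hairpins. Homer1 (chromosome 13), the gene of both the long scaffold and a short, activity-induced form that lacks the coiled coil, had 118, 144 and 123 CPM in control, 156, 146 and 127 CPM under shRNA A and 118, 132 and 126 CPM under shRNA B. Gene counts cannot separate its forms, and the log2 fold changes of 0.16 ± 0.09 and -0.03 ± 0.09 did not pass. The activity-regulated list of 27 genes, given for comparison, had summed levels of 1534 to 2294 CPM in control, 2073 to 2306 CPM under shRNA A and 1841 to 2047 CPM under shRNA B.

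**Figure D3:**
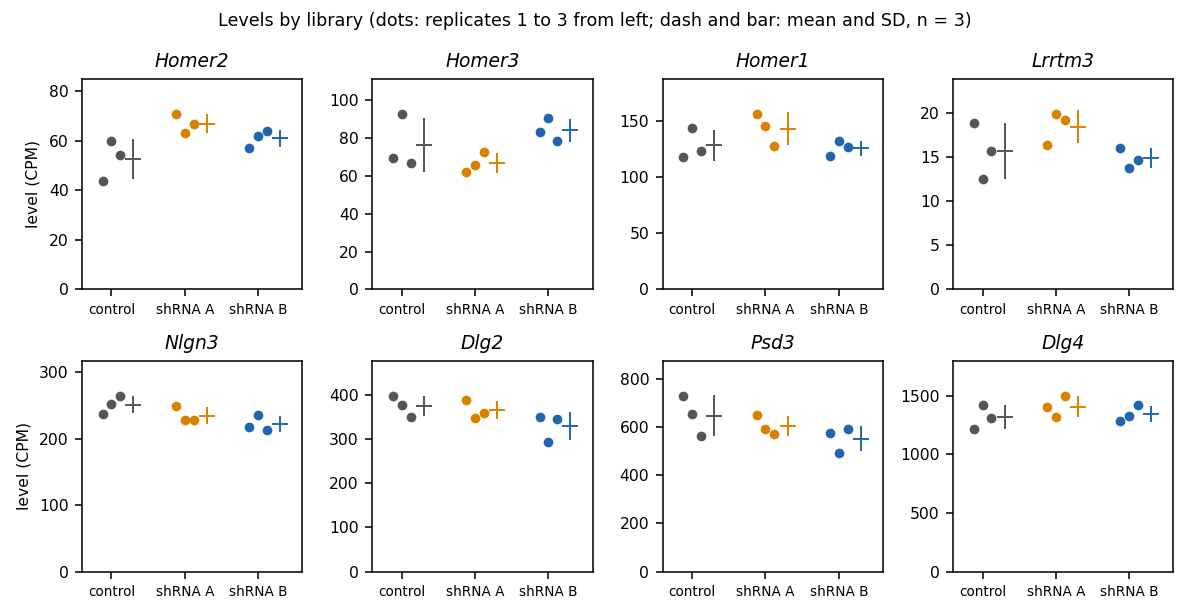
Levels in CPM (y axes, from 0) of 8 members in the control, shRNA A and shRNA B libraries (x axes). Dots are libraries, ordered by replicate number, and the dash with a bar is the mean and SD (n = 3). Homer2 under shRNA A lies above all controls, Homer3 and Lrrtm3 separate the hairpins in opposite directions, and Dlg2 and Nlgn3 under shRNA B lie below all controls, while Psd3, Homer1 and Dlg4 overlap.

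Among the neuroligins, Nlgn3 (X chromosome), found at excitatory and inhibitory synapses, had 237, 252 and 264 CPM in control, 249, 227 and 228 CPM under shRNA A and 217, 236 and 213 CPM under shRNA B. The highest shRNA B library and the lowest control nearly touched at 236 and 237 CPM. Its log2 fold change was -0.18 ± 0.07 (SE) under shRNA B (edgeR unadjusted p = 0.0257, adjusted p = 0.310) and -0.14 ± 0.06 over both hairpins (adjusted p = 0.448). Dlg2 and Nlgn3 were the 2 members without overlap between shRNA B and control, 7.14% of the members beside 18.1% of all genes, and over both hairpins 0 members were without overlap beside 4.5% of all genes. Nlgn1 (chromosome 3), the neuroligin of excitatory synapses, had 66.1, 70.1 and 57.9 CPM in control, 71.6, 56.7 and 56.6 CPM under shRNA A and 61.1, 59.4 and 56.9 CPM under shRNA B, with a log2 fold change of -0.10 ± 0.08 over both hairpins (edgeR adjusted p = 0.721). Nlgn2 (chromosome 11), the highest neuroligin per kb, is known mainly from inhibitory synapses. It had 351, 419 and 401 CPM in control, 392, 376 and 408 CPM under shRNA A and 347, 406 and 400.1 CPM under shRNA B, and its log2 fold changes were 0.00 ± 0.08 and -0.02 ± 0.08. Nlgn2 made up 67.8%, 69.4% and 70.0% of the family's summed level per kb in the 3 groups.

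The LRRTMs are leucine-rich repeat proteins that bind presynaptic adhesion proteins and help to hold AMPA receptors at the synapse. Lrrtm1 (chromosome 6), the highest LRRTM gene per kb, had 142, 154 and 142 CPM in control, 147, 136 and 142 CPM under shRNA A and 135, 144 and 124 CPM under shRNA B, with log2 fold changes of -0.04 ± 0.07 and -0.12 ± 0.07 (SE), and -0.08 ± 0.06 over both hairpins (edgeR adjusted p = 0.698). Lrrtm3 (chromosome 10), the lowest member per kb, had 18.9, 12.6 and 15.7 CPM in control, 16.4, 19.9 and 19.2 CPM under shRNA A and 16.1, 13.8 and 14.8 CPM under shRNA B. It was singled out after its values were seen. Its hairpin groups did not overlap but nearly touched, and the control libraries overlapped both. The log2 fold change between the hairpins was -0.31 ± 0.13 (SE; edgeR unadjusted p = 0.0361, adjusted p = 0.492). Homer3 and Lrrtm3 were the 2 members without overlap between the hairpins, 7.14% of the members beside 14.2% of all genes. Lrrtm4 varied most of all members, by 1.73-fold between its lowest and highest library. It ranged from 37.5 CPM in shRNA B replicate 3, the library in which the dentate granule cell list was also lowest (-0.69 on the log2 scale against the control mean), to 65.0 CPM in control replicate 3. Lrrtm2 had group means of 22.7, 23.5 and 24.4 CPM, within the spread.

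Among the regulators of actin and GTPases, Psd3 (chromosome 8), which encodes an exchange factor for the small GTPase ARF6, had 729.8, 654 and 562 CPM in control, 651, 594 and 571 CPM under shRNA A and 575, 492 and 591 CPM under shRNA B. The lowest control lay among the shRNA B libraries. The log2 fold change under shRNA B was -0.23 ± 0.10 (SE; edgeR unadjusted p = 0.0422, adjusted p = 0.369), -0.33 without control replicate 3 and -0.14 without control replicate 1. Iqsec1 (chromosome 6), which encodes another ARF6 exchange factor, had 185, 231 and 222 CPM in control, 235, 228 and 247 CPM under shRNA A and 208, 213 and 246 CPM under shRNA B. Its log2 fold change over both hairpins was 0.11 ± 0.08 (edgeR adjusted p = 0.684), with 1 low control library. Iqsec2, Kalrn and Baiap2 had log2 fold changes between -0.03 and 0.12 against control. Kalrn encodes a GTPase exchange factor of spines, and Baiap2 encodes IRSp53, which joins PSD-95 and Shank to actin.

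The linkers Cnksr2 and Lrrc7, whose proteins bind PSD-95 or its partners, had log2 fold changes of -0.04 and -0.04 under shRNA A and -0.07 and -0.05 under shRNA B. Their standard errors were 0.08 to 0.09.

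Directions over the whole set gave no clear tilt against control. The log2 fold change was positive in 17 of 28 members under shRNA A, beside 50.1% of all genes, with a median of 0.03. Under shRNA B it was positive in 13, beside 50.3%, with a median of -0.02. Over both hairpins it was positive in 15, beside 50.5%, with a median of 0.02, and the median over all genes was 0.00 in these comparisons. Between the hairpins 6 of 28 were positive, beside 50.5%, so 22 members read lower under shRNA B than under shRNA A, with a median of -0.07 and none past the test. The medians against control changed sign when single libraries were left out. For shRNA A the median was -0.013 without control replicate 1, for shRNA B it was 0.05 without control replicate 2 and 0.02 without shRNA B replicate 1, and for both hairpins it was -0.05 without control replicate 1. Leaving out shRNA A replicate 3 or shRNA B replicate 3 also turned it, to -0.0053 and -0.0013. Scaling on pan-neuronal genes moved the median of all genes to 0.13 for each of these comparisons, and the members then read 0.16, 0.10 and 0.14, with 26, 25 and 25 of 28 positive. The median between the hairpins was negative under each scaling and left-out library tried, between -0.10 and -0.04. This tilt was not particular to the members. Lower under shRNA B were also 40 of 52 synaptic adhesion partners (median -0.06) and 31 of 44 further postsynaptic density genes (median -0.04). So were 20 of 27 activity-regulated genes (median -0.11). The tilt was not seen in 2 other lists, which were near an even split. Lower under shRNA B were 5 of 11 excitatory neuron genes (median 0.01) and 6 of 11 inhibitory postsynaptic genes (median -0.0025). Microglial genes were higher in 14 of 17 and interferon response genes in 29 of 29. CA1 pyramidal markers were also lower under shRNA B than under shRNA A, in 8 of 9 genes (median -0.31, summed levels of 990 to 1207 CPM under shRNA A and 619 to 1165 CPM under shRNA B), and interneuron markers in 12 of 13 (median -0.16). The CA2 and CA3 pyramidal list went the other way, with 9 of 14 genes higher under shRNA B (median 0.18, scores of -0.18 to -0.09 under shRNA A and -0.06 to 0.22 under shRNA B on the log2 scale against the control mean). The part of these differences in the members' values was not tested.

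Other cell types also differed beside the members. The 22 pan-neuronal genes had negative log2 fold changes in 19 under shRNA A (median -0.11) and 22 under shRNA B (median -0.13), none past the test, with summed levels of 14590 to 16480 CPM in control, 13740 to 14230 CPM under shRNA A and 13540 to 15120 CPM under shRNA B. Oligodendrocyte genes were positive in 16 of 16 and 15 of 16, none past the test, with summed levels of 3389 to 5490, 4752 to 7440 and 3862 to 7770 CPM. Of 17 microglial genes, 5 passed the test as higher under shRNA B and 0 under shRNA A, and of 29 interferon response genes 20 passed under shRNA B and 0 under shRNA A. Of all genes, 1.02% were called under shRNA B and 0.0243% under shRNA A. Microglial genes were positive in 16 of 17 under each hairpin (medians 0.16 for shRNA A and 0.29 for shRNA B). Interferon response genes were positive in 29 of 29 under each (medians 0.69 and 2.25). The excitatory neuron list of 11 genes was positive in 7 under shRNA A (median 0.05) and 6 under shRNA B (median 0.00), none past the test. Of 15 astrocyte genes 11 were positive under shRNA A (median 0.06) and 6 under shRNA B (median -0.01), with 1, Aldh1l1, past the test as higher under shRNA B, and summed levels of 5505 to 5989, 5607 to 6370 and 5414 to 6013 CPM in the same order of groups. The part of these lists in the members' values was not tested.

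In some libraries most members lay on the same side of their group mean, while others split more evenly. Such counts were not made over all genes. Relative to its group mean, control replicate 1 was higher in 6 of 28 members, control replicate 2 in 22 and control replicate 3 in 15. The counts were 19, 6 and 14 of 28 in shRNA A replicates 1 to 3 and 8, 17 and 18 of 28 in shRNA B replicates 1 to 3. In several libraries these deviations ran with base composition, which did not enter the choice of genes. The transcripts of 9 members, among them Dlgap3, Shank1, Shank3, Nlgn2 and Homer3, hold over 55% GC, and those of 10, among them Homer1, Lrrtm2, Nlgn1 and Psd3, hold under 45%. In control replicate 2, 9 of the 9 GC-rich members lay above the group mean, in control replicate 1, 0 of 9, and in shRNA B replicate 1, 0 of 9. In shRNA A replicate 3 the GC-rich members lay at a median of 0.11 and the GC-poor members at -0.09 on the log2 scale. Across the 28 members, deviation and GC content had a Spearman correlation of 0.78 in shRNA A replicate 3 and -0.58 in shRNA A replicate 1, and across 13974 genes the values were 0.52 and -0.45. In control replicate 3 and shRNA B replicate 2 it was near 0, at -0.09 and -0.04 across the members. These correlations are across genes of 1 library, which share its preparation and depth and are not independent replicates. Deviations are taken from the mean of the same group's libraries, so those of a gene cancel within the group. A library high in GC-rich members thus leaves the others of its group low on balance. Opposite signs within a group are therefore not separate observations. Fold changes against control had a Spearman correlation with GC content of 0.04 across members under shRNA A and 0.41 under shRNA B, and of 0.18 and 0.24 across all these genes.

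**Figure D4:**
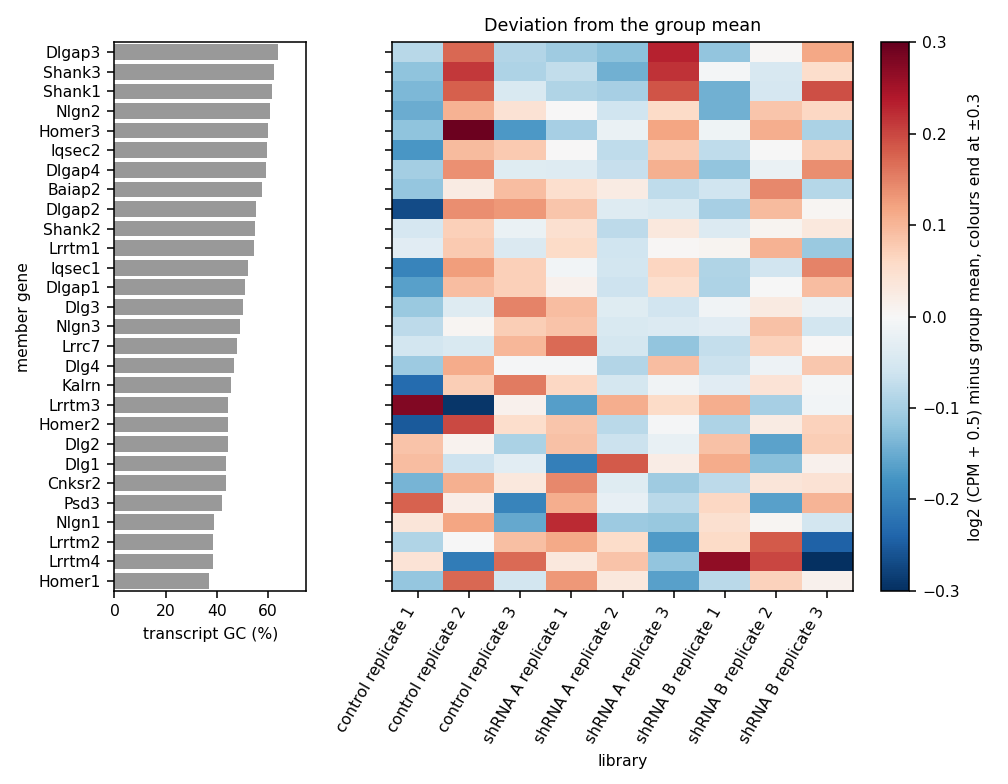
Deviation of each member from its group mean (colour, log2 scale, ending at 0.3 in either direction) in 9 libraries (x axis), with members ordered by the GC content of their longest transcript (left bars, percent). In shRNA A replicate 3 and control replicate 2 the GC-rich members at the top are red, and in control replicate 1 and shRNA B replicate 1 they are blue.

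Other genes of the excitatory postsynapse were read from the same fit. Of 44 further postsynaptic density genes, 0 passed the adjusted threshold in each of the 4 comparisons (edgeR), with 2, 5, 4 and 2 at an unadjusted p under 0.05 for shRNA A, shRNA B, both hairpins and shRNA B against shRNA A, beside 6.9%, 12.8%, 10.4% and 9.34% of all genes. Their medians were -0.01, -0.04, -0.03 and -0.04. The smallest p under shRNA B belonged to Nsmf, which encodes the synapse-to-nucleus messenger Jacob, at 1164 ± 86.7 CPM in control, 1141 ± 117 CPM under shRNA A and 853 ± 142 CPM under shRNA B (SD, n = 3 each). Its log2 fold change was -0.45 ± 0.12 (SE; edgeR adjusted p = 0.123), and the lowest library, shRNA B replicate 2, had 689.5 CPM. Next came Grip1, an AMPA receptor scaffold, at -0.28 ± 0.08 (adjusted p = 0.133). Under shRNA A, Actn2, which encodes a spine alpha-actinin, had 18.4 ± 1.70 CPM in control and 13.7 ± 0.289 CPM with the hairpin (SD, n = 3 each), without overlap, a log2 fold change of -0.43 ± 0.12 (SE; edgeR adjusted p = 0.487). Without overlap between shRNA A and control were 12.5% of all genes. Dclk1, a doublecortin-like kinase, was at -0.20 ± 0.07 between the hairpins.

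Of 52 synaptic adhesion partners, 0 passed in each comparison, with 4, 7, 3 and 8 at an unadjusted p under 0.05, beside the 6.9%, 12.8%, 10.4% and 9.34% of all genes. The lowest adjusted p was that of Ntng2, which encodes netrin-G2, a presynaptic ligand, with 77.1, 70.2 and 68.2 CPM in control, 52.3, 62.4 and 66.2 CPM under shRNA A and 58.9, 55.2 and 51.5 CPM under shRNA B. Over both hairpins 4.5% of all genes were without overlap with control, and Ntng2 was among them, with both hairpin groups below all controls. Its log2 fold change was -0.25 ± 0.09 (SE) under shRNA A (edgeR adjusted p = 0.659) and -0.38 ± 0.09 under shRNA B (adjusted p = 0.0739). Lrrc4c, which encodes the postsynaptic netrin-G1 ligand, was at -0.23 ± 0.07 under shRNA B. Clstn2 was at -0.21 ± 0.08 under shRNA A and Cadm1 at -0.34 ± 0.10 over both hairpins, the latter with 1 high control library (184 CPM beside 132 and 125 CPM). Of 11 genes of the inhibitory postsynapse, 0 passed in each comparison, with 0, 1, 0 and 1 at an unadjusted p under 0.05. That gene was Dmd (dystrophin), at -0.26 ± 0.09 under shRNA B and -0.31 ± 0.09 between the hairpins. Igsf9b was at 0.34 ± 0.16 under shRNA A and Shisa7 at 0.13 ± 0.09 under shRNA B.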

How the data were processed

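PolyA RNA was sequenced from mCherry-positive hippocampal tissue of 9 mice, 3 per group by the series' design, in libraries that keep no strand, per the labels' protocols. The authors deposited whole-number read counts per Ensembl gene. Build mm9 and the tools HTSeq 0.6.1, TopHat 1.4.1, DESeq2 1.4.5 with R 3.1.1, and SAMtools 0.1.19 come from the submitters' processing notes; settings and annotation are not given in the sources used here. The authors' deposited table also holds a mean normalized signal, log2 fold changes with standard errors, a likelihood ratio test score, and p-values per gene. Exons of 10 members overlap those of another gene over at least 100 bases in the GRCm38 annotation, and no strand separates such reads. For Nlgn3 (3823 bases, with Gm21986) and Dlg2 (150 bases, with Gm45131) the other gene lies on the same strand, where strand would not help. Homer2 overlaps Gm44570 on the opposite strand over 525 bases.

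The deposited counts went unchanged into edgeR 4.0.16 (R 4.3.3): filterByExpr by group (16438 genes), TMM scaling, a robust quasi-likelihood fit on all 9 libraries, two-sided tests and Benjamini-Hochberg adjustment over all tested genes with a threshold of 0.05. The standard error is the log2 fold change divided by the square root of F, and 95% intervals use its t quantile. Totals were 29123744 to 38189288 counts, so 3 reads stood for 0.0786 to 0.103 CPM, which covers counting error only. P-values measure the spread between the libraries labelled as replicates. Within each group all pairs of libraries differed beyond counting noise (chi-square per degree of freedom 7.9 to 20.9). The test was tried on simulated counts first, with changes put into genes of at least 1 CPM. It recovered 2.99% to 7.46% of 1.2-fold changes and 65.7% to 80.6% of 1.5-fold changes over the 4 comparisons. False calls were 4 of 126 calls for shRNA A and 9 of 117 for shRNA B. They were 14 of 128 for both hairpins and 13 of 125 between the hairpins.

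CPM per kb uses merged exons of GENCODE M21 (GRCm38), a build other than that of the counts, so it is approximate, and GC content is that of the longest M21 transcript. Scores of marker lists are medians of log2(CPM + 0.5) minus the control mean. Deviations are on the same log2 scale.

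The members and lists were chosen with earlier results of these data known. All 28 members are accounted for by family. Full values are given for members past the threshold, filled up to 8 by the smallest p over both hairpins, and for the highest member per kb of the PSD-95, Shank, Homer, SAPAP, neuroligin and LRRTM families. In other lists, genes past the threshold or the 2 with the smallest p per comparison are named, apart from some genes that are not reported here. Correlations between members across libraries are not reported. DESeq2 1.42.0, limma-voom (limma 3.58.1), other scalings, no count filter, a fit without robust estimation, a replicate block, fits of only the groups compared and leaving out each library were the alternatives.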

Additional observations from a re-analysis of the deposited data

How the results depend on the processing

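Of 28 members, 0 passed the adjusted threshold in each comparison under DESeq2, limma-voom, library size scaling, no count filter, no robust estimation, the replicate block, fits of only the groups compared and each left-out library; the exception among all alternatives was pan-neuronal scaling, with 1 member over both hairpins, Homer2. Under that scaling the members' median was 0.16 for shRNA A, 0.10 for shRNA B and 0.14 for both hairpins, beside a shift of 0.13 in all genes. The number of genes called among all tested depended far more on the processing. With shRNA A it was 4, against 43 with DESeq2, 9 with pan-neuronal scaling, 9 without a count filter, 0 with limma-voom, 2 without robust estimation and 18 in a fit of only the groups compared. With shRNA B it was 167, against 386 with DESeq2, 95 with limma-voom and 42 in a fit of only the groups compared. Over both hairpins it was 16, against 243 with DESeq2, 84 with pan-neuronal scaling and 67 without a count filter. Between the hairpins it was 0, against 123 with DESeq2, 1 with pan-neuronal scaling and 21 without a count filter. The cause of these differences was not tested. Leaving out single libraries gave 0 to 10 genes with shRNA A, 13 to 217 with shRNA B, 1 to 52 over both hairpins and 0 to 110 between the hairpins, with 0 members in each. The 13 came without control replicate 1, with 23 and 19 without control replicates 2 and 3, and the 110 without shRNA B replicate 3. The members' medians then ranged from -0.013 to 0.06, -0.07 to 0.05, -0.053 to 0.078 and -0.10 to -0.038. Replicate numbers did not pair the libraries: same-numbered libraries of different groups had correlations of their deviations between -0.316 and 0.394, and 2 of 9 libraries correlated best with their own number. With the replicate block, 5 genes were called with shRNA A, 148 with shRNA B, 31 over both hairpins and 1 between the hairpins. A fit of only the groups compared was not made for both hairpins, which use all 3 groups. With 3 libraries a group, only 13 and 15 of 28 members had intervals inside 1.2-fold for shRNA A and shRNA B.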

Other observations

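A ratio of transcripts within a library does not depend on how libraries are scaled. The ratio of Homer3 to Homer2 CPM, chosen after the values of both genes were seen and given with no test, was 1.59, 1.55 and 1.24 in the control libraries, 0.878, 1.04 and 1.09 under shRNA A and 1.46, 1.46 and 1.23 under shRNA B. The 3 shRNA A libraries lay below the other 6. Homer3 and Homer2 transcripts hold 60.2% and 44.4% GC, and library deviations that run with GC content do not cancel in their ratio. Reads where Homer3 overlaps Ddx49 do not cancel either. The part of GC content and of this overlap in the ratio was not tested. Per kb, Homer3 made up 59.7% ± 2.27 of the summed Homer level in control, 53.0% ± 3.87 under shRNA A and 61.4% ± 1.82 under shRNA B (SD, n = 3 each). The Lrrtm4 to Lrrtm1 ratio of CPM was 0.417, 0.324 and 0.459 in control, 0.350, 0.394 and 0.327 under shRNA A and 0.464, 0.415 and 0.302 under shRNA B, so its groups overlapped.

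Camta2, the paralog of the targeted gene, had 836, 863 and 852 CPM on average in control, shRNA A and shRNA B, with log2 fold changes of 0.05 ± 0.10 and 0.03 ± 0.10 (SE).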
